A study of Mus musculus with 12 samples.

Results

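The transcripts of 10 genes for CC chemokines made by macrophages were followed across 4 sorted fractions of monocyte-macrophage lineage cells (Mo-Macs) from allergic mouse skin. The genes were chosen by symbol, namely the monocyte chemoattractants *Ccl2*, *Ccl7*, *Ccl8* and *Ccl12*, the genes *Ccl3*, *Ccl4* and *Ccl6* of the macrophage inflammatory protein group, and the type 2 chemokines *Ccl17*, *Ccl22* and *Ccl24*. They are 10 of the 37775 genes in the table, and all 10 were among the 22118 genes with counts high enough to be tested. The cells came from ear skin of male wild-type (WT) BALB/c mice, 7 to 12 weeks old by the methods of the study, on day 5 of IgE-mediated chronic allergic inflammation (IgE-CAI). All mice had been given 300 μg of hapten-specific IgE intravenously, followed a day later by 10 μg of hapten-coupled ovalbumin in the ear skin. Ears given the control antigen were not analysed here, and each comparison below is between fractions of the same lesion. The fractions, with 3 libraries each, were Ly6ChiPD-L2lo cells (labelled Classical mono), Ly6ChiPD-L2hi cells (Early CMDM), Ly6CloPD-L2hi cells (Late CMDM) and Ly6CloPD-L2lo cells (Resident-like). The study's results describe the Mo-Macs as CD45+ CD11b+ cells without Ly6G and Siglec-F. Its methods add the macrophage marker encoded by *Adgre1*. CMDM stands for a macrophage derived from classical monocytes, and no allele, transgene or further agent separated the fractions.

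Chemokines are small secreted proteins that direct the migration of leukocytes through G protein-coupled receptors. The CC class, named for a pair of adjacent cysteines, draws monocytes, T cells, basophils and eosinophils into tissue, and macrophages are a main source of it. In type 2 inflammation, IL-4 and IL-13 induce a set that includes *Ccl17*, *Ccl22* and *Ccl24*, whereas *Ccl2*, *Ccl3*, *Ccl4* and *Ccl7* are classical products of inflammatory stimulation.

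Of the 10 genes, 7 lie on mouse chromosome 11, 2 on chromosome 8 and 1 on chromosome 5. On chromosome 11 (GRCm38, GENCODE annotation) *Ccl2* spans 82035571 to 82037453, *Ccl7* 82045712 to 82047525, *Ccl12* 82101845 to 82103400 and *Ccl8* 82115185 to 82116799, all on the plus strand. *Ccl1* closes this block, and *Ccl5*, 1220.1 kb beyond its end, opens the block that holds the macrophage inflammatory protein genes. In the second block *Ccl6* spans 83587882 to 83593087 and *Ccl3* 83647844 to 83649355 on the minus strand, and *Ccl4* 83662584 to 83664683 on the plus strand. *Ccl22* (94745590 to 94751699) and *Ccl17* (94810453 to 94812036) lie within a span of 66.4 kb on chromosome 8, and *Ccl24* lies on chromosome 5 from 135569937 to 135573049. No 50-base stretch of a member's transcripts recurred in the transcripts of another gene. *Ccl2* overlaps the gene *Gm17268* on the other strand and *Ccl6* overlaps *E230016K23Rik* likewise, and reads were mapped in a single orientation. Whether the library preparation marked strand is not given in the sources used here, so that counts in these overlaps are uncertain.

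Promoter sequences from RefSeq (GRCm38.p6), each from 250 bases before to 50 bases after the start, were matched by symbol for 6 of the 10 genes, and *Ccl2*, *Ccl7*, *Ccl4* and *Ccl24* were not matched. The promoters of *Ccl8* and *Ccl12*, the genes with the largest fall from late CMDMs to resident-like macrophages, are shown 5′ to 3′. Those of *Ccl17* and *Ccl22*, a pair that stayed high in resident-like macrophages under the main scaling, follow. Under scaling by leukocyte genes, given below, both were called lower there than in late CMDMs. The windows shown cover chr11:82114935-82115234, chr11:82101595-82101894, chr8:94810203-94810502 and chr8:94745434-94745733, all on the plus strand. Capitals mark matches to the motifs searched.
Ccl8: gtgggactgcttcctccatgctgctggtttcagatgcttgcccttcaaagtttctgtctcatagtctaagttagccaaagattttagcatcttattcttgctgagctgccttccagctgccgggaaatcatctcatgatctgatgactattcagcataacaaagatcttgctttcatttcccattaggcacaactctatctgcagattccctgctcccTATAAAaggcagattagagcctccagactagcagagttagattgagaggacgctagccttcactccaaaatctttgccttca
Ccl12: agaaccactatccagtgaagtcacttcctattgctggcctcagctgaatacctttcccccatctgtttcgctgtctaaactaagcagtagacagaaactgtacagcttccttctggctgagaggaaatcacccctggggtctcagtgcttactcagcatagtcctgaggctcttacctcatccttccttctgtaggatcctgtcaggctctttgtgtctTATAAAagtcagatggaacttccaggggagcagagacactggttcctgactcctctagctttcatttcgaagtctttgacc
Ccl17: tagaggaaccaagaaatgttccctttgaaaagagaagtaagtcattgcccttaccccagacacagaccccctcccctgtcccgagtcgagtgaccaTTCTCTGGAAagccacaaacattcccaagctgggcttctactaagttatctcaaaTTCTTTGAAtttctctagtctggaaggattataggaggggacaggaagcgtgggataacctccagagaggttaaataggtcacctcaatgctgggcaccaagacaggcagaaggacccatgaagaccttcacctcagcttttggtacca
Ccl22: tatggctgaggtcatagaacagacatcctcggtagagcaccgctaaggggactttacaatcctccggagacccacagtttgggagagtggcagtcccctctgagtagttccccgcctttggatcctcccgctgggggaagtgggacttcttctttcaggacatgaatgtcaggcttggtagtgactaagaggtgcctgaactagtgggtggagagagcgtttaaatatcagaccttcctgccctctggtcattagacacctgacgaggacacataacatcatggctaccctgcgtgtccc
The motifs, read on both strands, were TATAAA (the core of a TATA box), TTCNNNNGAA (a spacing preferred by STAT6), TTCNNNGAA (a spacing of other STAT factors) and the NF-kappaB consensus, and no matches of different motifs overlapped in the windows shown. TATAAA ended 26 bases before the start in *Ccl12* (from -31 to -26) and 27 bases before it in *Ccl8* (from -32 to -27), and 13.6% of all 32851 promoters in the table hold it. *Ccl17* held TTCTCTGGAA from -154 to -145 and TTCTTTGAA from -99 to -91, motifs found in 6.95% and 8.30% of all promoters. The NF-kappaB consensus, held by 8.46% of all promoters, had no match in the 6 windows. *Ccl22* held none of the motifs in this window, which is set around a RefSeq start downstream of the GENCODE start at 94745590. A match describes letters only, and binding was not measured.

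Total counts lay between 12537178 and 19844113 per library, at which 3 counts, the upper limit allowed by a count of 0, correspond to 0.162 to 0.239 CPM, the unit of counts scaled to a common library size. This limit covers counting error only, since reads are not independent molecules. Levels are given as this CPM after TMM scaling, under which the bulk of genes is taken as unchanged, and as the mean ± SD of 3 libraries. The monocyte and macrophage markers fixed as a list were present in each fraction, with summed levels of 7197 to 9157 CPM in the monocyte libraries, 2767 to 3971 CPM in the early CMDM libraries, 6752 to 7802 CPM in the late CMDM libraries and 9384 to 10380 CPM in the resident-like libraries. *Ly6c2* was at 492 ± 113 CPM in the monocyte libraries, against 49.3 ± 4.78 CPM in the early CMDM libraries, the other fraction sorted as Ly6Chi. The early CMDM libraries stood apart from the rest. There the 10 pan-leukocyte genes, such as *Ptprc*, which encodes CD45, summed to 1224 to 1924 CPM, against 5156 to 5603 CPM in the monocyte libraries, 2534 to 2874 CPM in the late CMDM libraries and 4658 to 4867 CPM in the resident-like libraries. The 6 keratinocyte genes summed to 17100 to 27280 CPM in the early CMDM libraries and to 1871 to 4050 CPM over the other fractions. In sorted bulk samples, fewer cells of a type and less RNA per cell cannot be told apart. The part of these differences in the results was not tested, and calls of the members that turned on scaling by the leukocyte genes are given below under that scaling too.

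The 10 genes formed a growing part of the RNA from classical monocytes to late CMDMs. They took 0.139% to 0.162% of all counts in classical monocytes, 0.296% to 0.555% in early CMDMs, 1.07% to 1.40% in late CMDMs and 0.173% to 0.239% in resident-like macrophages. *Ccl8* made up 78.5% to 80.0% of their summed CPM, not corrected for length, in late CMDMs and 72.8% to 76.6% in early CMDMs, but only 40.0% to 48.1% in classical monocytes and 31.7% to 35.6% in resident-like macrophages. *Ccl6* was next, with 23.1% to 27.7% in classical monocytes, 25.8% to 26.9% in resident-like macrophages and 7.28% to 12.2% in the CMDM libraries. Divided by transcript length, *Ccl8* had the highest level of the 10 genes in each fraction, from 1244 ± 41.0 CPM per kb in classical monocytes to 18470 ± 2845 CPM per kb in late CMDMs. The lowest mean level per kb in each fraction was that of *Ccl22*, with 1.55 ± 0.446 CPM per kb in classical monocytes and 10.7 ± 1.14 CPM per kb in late CMDMs. *Ccl17* was close to it in classical monocytes, at 1.60 ± 0.336 CPM per kb. Not divided by length, *Ccl17* was the lower of the pair, with 0.821 against 3.44 CPM in classical monocytes, so this rank rests on the transcript lengths. The mean level was highest in late CMDMs for 8 of the 10 genes and in resident-like macrophages for the other 2, *Ccl3* and *Ccl4*. It was lowest in classical monocytes for 8 genes and in early CMDMs for *Ccl3* and *Ccl4*.

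**Figure D1:**
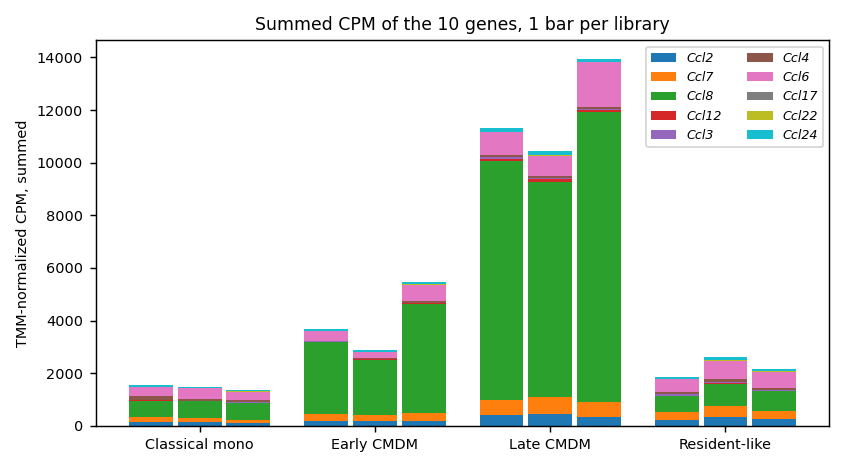
Summed TMM-normalized CPM of the 10 genes, with 1 stacked bar per library (x axis, 3 libraries per fraction) and a colour per gene. The late CMDM bars reach 10450 to 13950 CPM, of which *Ccl8* is the largest block, while the bars of classical monocytes stay between 1365 and 1538 CPM.

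Among the monocyte chemoattractants, *Ccl8* changed most. Its product, also called MCP-2, is in the mouse an agonist of CCR8, a receptor of type 2 helper T cells. The level of *Ccl8* was 615, 635 and 657 CPM in the 3 monocyte libraries, 2721, 2094 and 4169 CPM in the early CMDM libraries, 9067, 8202 and 11040 CPM in the late CMDM libraries and 612, 833 and 770 CPM in the resident-like libraries. The late CMDM libraries were far above all others and the early CMDM libraries lay between, without overlap, whereas classical monocytes and resident-like macrophages overlapped. *Ccl8* rose in early CMDMs over classical monocytes by a log2 fold change of 2.24 (SE, the standard error of the log2 fold change, 0.21, adjusted p = 4.32e-07, edgeR's quasi-likelihood test, adjusted by Benjamini-Hochberg over all tested genes, as for all adjusted p-values given). It rose further in late over early CMDMs, by 1.66 on the log2 scale (SE 0.20, adjusted p = 1.75e-05, same edgeR test). In resident-like macrophages it was 12.8-fold lower than in late CMDMs (log2 fold change -3.68, SE 0.22, adjusted p = 1.67e-08, same edgeR test).

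*Ccl12*, which encodes the CCR2 ligand MCP-5 of the mouse, took a like course at a lower level per kb (179 ± 22.7 CPM per kb in late CMDMs). It had 9.42, 8.36 and 7.97 CPM in the monocyte libraries, 25.0, 21.8 and 27.8 CPM in the early CMDM libraries, 107, 99.5 and 82.9 CPM in the late CMDM libraries and 19.4, 33.7 and 14.4 CPM in the resident-like libraries. Late CMDMs were above every other library and resident-like macrophages overlapped with early CMDMs. The log2 fold change was 1.53 in early CMDMs against classical monocytes (SE 0.25, adjusted p = 0.000166, edgeR's quasi-likelihood test), 1.95 in late against early CMDMs (SE 0.23, adjusted p = 2.02e-05) and -2.10 in resident-like macrophages against late CMDMs (SE 0.23, adjusted p = 1.52e-05).

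*Ccl2* and *Ccl7* encode ligands of CCR2, the receptor through which classical monocytes leave the bone marrow and enter inflamed tissue. *Ccl2* had 141, 135 and 92.7 CPM in the monocyte libraries, 195, 175 and 190 CPM in the early CMDM libraries, 409, 434 and 346 CPM in the late CMDM libraries and 228, 339 and 269 CPM in the resident-like libraries. For *Ccl7* the libraries had 204, 154 and 115 CPM, 252, 239 and 277 CPM, 570, 647 and 541 CPM, and 278, 401 and 281 CPM in the same order. In both genes the 4 fractions did not overlap, with late CMDMs at the top, resident-like macrophages next and classical monocytes lowest. Both rose in early CMDMs over classical monocytes, *Ccl2* by 0.60 (SE 0.16, adjusted p = 0.00607) and *Ccl7* by 0.70 on the log2 scale (SE 0.18, adjusted p = 0.00533, edgeR's quasi-likelihood test). They rose again in late CMDMs, by 1.09 (adjusted p = 8.28e-05) and 1.20 (adjusted p = 0.000122, same edgeR test). In resident-like macrophages *Ccl7* was lower than in late CMDMs by a log2 fold change of -0.87 (SE 0.18, adjusted p = 0.00199) and *Ccl2* by -0.51 (SE 0.16, adjusted p = 0.0254, same edgeR test). The call of *Ccl2* was lost without late CMDM replicate 1 (adjusted p = 0.0725), late CMDM replicate 2 (0.102), resident-like replicate 1 (0.113) or resident-like replicate 3 (0.0797).

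**Figure D2:**
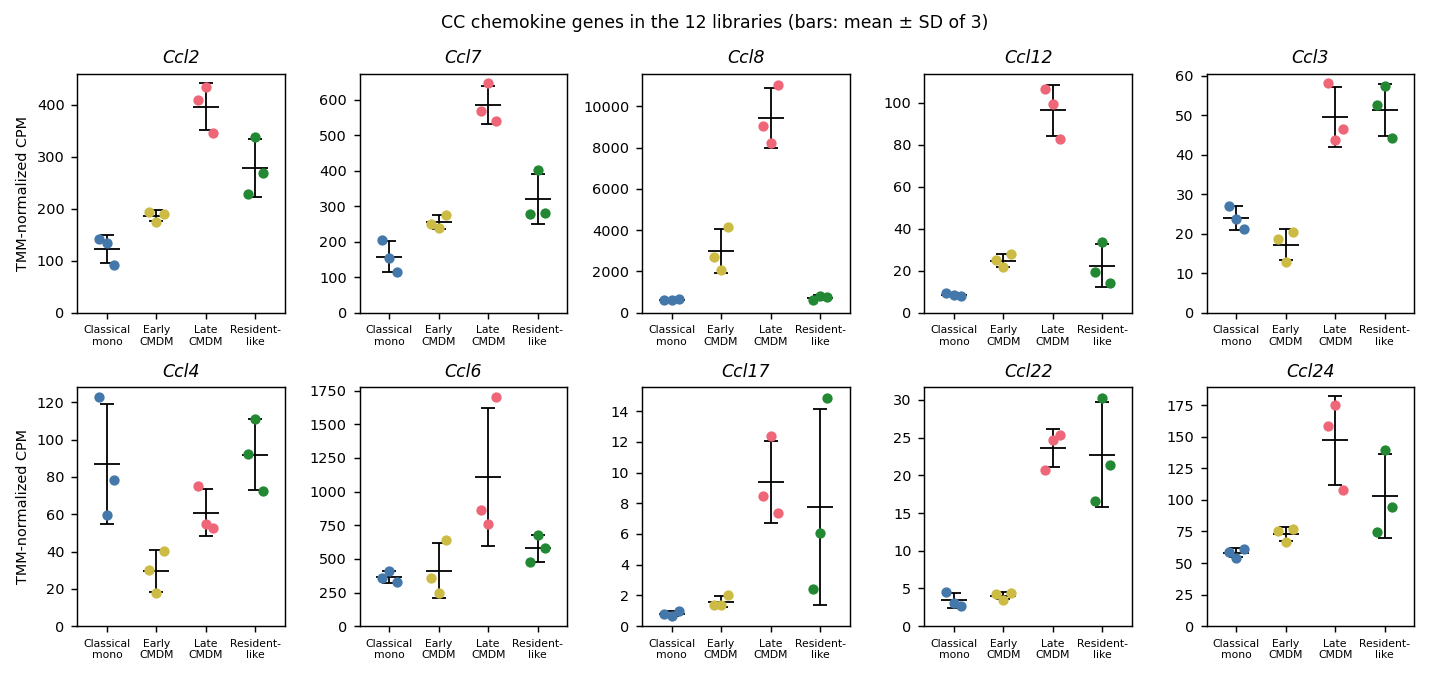
TMM-normalized CPM (y axis, linear, from 0) of each of the 10 genes in the 12 libraries, grouped by fraction (x axis), with points for libraries and black bars for the mean ± SD of 3. *Ccl8* and *Ccl12* peak in late CMDMs, and *Ccl4* is lowest in early CMDMs at 29.6 ± 11.3 CPM. *Ccl17* and *Ccl22* have higher means in late CMDMs and resident-like macrophages than in the other fractions, with a wide spread of *Ccl17* in resident-like macrophages.

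The genes of the macrophage inflammatory protein group took another course, with *Ccl3* and *Ccl4* lowest in early CMDMs. The products of both attract monocytes and T cells, and that of *Ccl3* is a ligand of CCR1. *Ccl3* had 27.1, 23.7 and 21.2 CPM in the monocyte libraries, 18.6, 12.8 and 20.4 CPM in the early CMDM libraries, 58.2, 43.9 and 46.5 CPM in the late CMDM libraries and 52.6, 57.4 and 44.2 CPM in the resident-like libraries. The latter pair of fractions overlapped and lay above the former pair, which did not overlap but were close, 20.4 against 21.2 CPM at the nearest libraries. *Ccl3* was lower in early CMDMs than in classical monocytes by a log2 fold change of -0.47 (SE 0.17, adjusted p = 0.0302, edgeR's quasi-likelihood test). This call was lost without classical monocyte replicate 1 (adjusted p = 0.13) or 2 (0.0525) and without early CMDM replicate 1 (0.05, just above the threshold) or 2 (0.169). *Ccl3* rose in late over early CMDMs by 1.52 on the log2 scale (SE 0.17, adjusted p = 4.62e-06, same edgeR test), and the log2 fold change of resident-like macrophages against late CMDMs was 0.05 (SE 0.16, adjusted p = 0.834).

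*Ccl4* had 123, 59.7 and 78.4 CPM in the monocyte libraries, 30.1, 18.02 and 40.5 CPM in the early CMDM libraries, 75.4, 54.6 and 52.4 CPM in the late CMDM libraries and 92.3, 111 and 72.6 CPM in the resident-like libraries. Every early CMDM library was below all others, and the remaining 3 fractions overlapped. It fell in early CMDMs against classical monocytes by 1.56 on the log2 scale (SE 0.31, adjusted p = 0.00158, edgeR's quasi-likelihood test) and was higher in late than in early CMDMs by 1.04 (SE 0.31, adjusted p = 0.0248). The latter call was lost with no filter on low counts (adjusted p = 0.102) and without classical monocyte replicate 3 (0.0503), early CMDM replicate 1 (0.0629) or 2 (0.0931) or late CMDM replicate 1 (0.0864). Scaled by the leukocyte genes, *Ccl3* and *Ccl4* were not lower in early CMDMs, with log2 fold changes of 1.43 and 0.31, while the median of all genes then stood at 1.92. Measured against that median they remained at the low end of the 10 genes, as the plot of changes shows.

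*Ccl6*, also called C10, encodes a ligand of CCR1 found in rodents. It had 355, 412 and 328 CPM in the monocyte libraries, 356, 244 and 639 CPM in the early CMDM libraries, 862, 761 and 1699 CPM in the late CMDM libraries and 479, 677 and 582 CPM in the resident-like libraries. In both CMDM fractions replicate 3 was far above the other 2 libraries, which made this the gene with the widest spread among the abundant members. *Ccl6* rose in late over early CMDMs by 1.42 on the log2 scale (SE 0.35, adjusted p = 0.00856, edgeR's quasi-likelihood test). Early CMDMs against classical monocytes gave 0.18 (SE 0.35, adjusted p = 0.708) and turned to -0.27 without early CMDM replicate 3. Resident-like macrophages against late CMDMs gave -0.94 (SE 0.35, adjusted p = 0.0672), with no overlap of the libraries. That value was called without early CMDM replicate 2 (adjusted p = 0.0466) or 3 (0.0339) or late CMDM replicate 2 (0.0385).

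The type 2 chemokines *Ccl17* and *Ccl22*, which encode the ligands of CCR4 on type 2 helper T cells, were scarce in classical monocytes and early CMDMs and higher in the other fractions. *Ccl22* had 4.56, 3.08 and 2.68 CPM in the monocyte libraries, 4.27, 3.48 and 4.43 CPM in the early CMDM libraries, 20.7, 24.7 and 25.4 CPM in the late CMDM libraries and 16.6, 30.3 and 21.4 CPM in the resident-like libraries. The former pair of fractions overlapped at the low level and the latter pair at the high level, with no library between. *Ccl22* was 5.81-fold higher in late than in early CMDMs (log2 fold change 2.54, SE 0.23, adjusted p = 7e-07, edgeR's quasi-likelihood test). Early CMDMs against classical monocytes gave 0.25 (SE 0.25, adjusted p = 0.454) and resident-like macrophages against late CMDMs -0.06 (SE 0.20, adjusted p = 0.862).

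*Ccl17* had 0.800, 0.660 and 1.00 CPM in the monocyte libraries, from 12 to 18 counts, and 1.36, 1.39 and 2.03 CPM in the early CMDM libraries. Late CMDMs had 8.44, 12.4 and 7.35 CPM, and the resident-like macrophage libraries were spread over 2.43, 6.07 and 14.8 CPM, the widest range of any member within a fraction relative to its mean. The late CMDM libraries were above all libraries of early CMDMs and classical monocytes. *Ccl17* rose in late over early CMDMs by 2.56 on the log2 scale (SE 0.54, adjusted p = 0.00284, edgeR's quasi-likelihood test). The log2 fold change of resident-like macrophages against late CMDMs was -0.29 (SE 0.45, adjusted p = 0.692), and without resident-like replicate 3, the library at 14.8 CPM, it was -1.16 and called (adjusted p = 0.0192).

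*Ccl24* encodes eotaxin-2, a ligand of CCR3 that attracts eosinophils. It had 59.0, 54.1 and 61.3 CPM in the monocyte libraries, 75.6, 66.9 and 76.6 CPM in the early CMDM libraries, 159, 175 and 108 CPM in the late CMDM libraries and 74.8, 140 and 94.5 CPM in the resident-like libraries. Late CMDMs lay above early CMDMs and classical monocytes, and resident-like macrophages overlapped with both CMDM fractions. *Ccl24* rose in late over early CMDMs by 1.01 on the log2 scale (SE 0.20, adjusted p = 0.00145, edgeR's quasi-likelihood test). It gave 0.33 in early CMDMs against classical monocytes (SE 0.20, adjusted p = 0.207) and -0.52 in resident-like macrophages against late CMDMs (SE 0.20, adjusted p = 0.0695), and the latter was called by DESeq2 (adjusted p = 0.0382) and in the edgeR fits without late CMDM replicate 3 (0.016) or resident-like replicate 2 (0.00357). Fitted on the 6 libraries of the pair alone, *Ccl24* was called higher in early CMDMs than in classical monocytes (adjusted p = 0.0312), as was *Ccl17* (0.0277).

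In the step from classical monocytes to early CMDMs the monocyte chemoattractants rose, *Ccl3* and *Ccl4* fell, and *Ccl6* and the type 2 chemokines did not pass the test. In numbers, 4 of 10 genes were called higher and 2 lower, at adjusted p-values under 0.05, where 24.2% of all tested genes were called higher and 20.6% lower. The median log2 fold change of the 10 genes was 0.47, against -0.01 over all tested genes. In the same step all 10 pan-leukocyte genes fell, with a median of -1.74, and under scaling by these genes 9 members were called higher and 0 lower, with *Ccl4* not called. Requiring a log2 fold change of 1 or more left 3 calls, *Ccl8* and *Ccl12* higher and *Ccl4* lower.

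In the step from early to late CMDMs all 10 genes were called higher and 0 lower, where 14.4% of all tested genes were called higher and 17.5% lower. The median log2 fold change was 1.47, against 0.02 over all tested genes, and each of the 10 was at least 1. *Ccl17* and *Ccl22* gave the largest values, ahead of *Ccl12*, *Ccl8* and *Ccl3*. In this step 8 of the 10 pan-leukocyte genes rose as well, with a median of 0.77 over the list. Of the 9 monocyte and macrophage markers 7 rose, with a median of 1.14 over the list. The list includes the sorting marker gene *Ly6c2*, which fell (log2 fold change -1.37, adjusted p = 7.64e-06, edgeR's quasi-likelihood test). Scaled by the leukocyte genes, 6 members were still called higher and 0 lower (*Ccl8*, *Ccl12*, *Ccl3*, *Ccl6*, *Ccl17* and *Ccl22*), and *Ccl2* (0.35), *Ccl7* (0.47), *Ccl4* (0.35) and *Ccl24* (0.28) were not, although the median of all genes then stood at -0.72.

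Between late CMDMs and resident-like macrophages the monocyte chemoattractants were lower in the latter, and the other 6 genes did not pass the test. Here 0 of 10 genes were called higher and 4 lower, where 12.7% of all tested genes were called higher and 15.4% lower. The median log2 fold change of the 10 genes was -0.51, against 0.00 over all tested genes. Scaled by the leukocyte genes, 9 of 10 were called lower, among them *Ccl3* at -0.88 and *Ccl17* at -1.22, with the median of all genes at -0.94, and only *Ccl4*, at -0.34, was not. Where a change of at least 1 on the log2 scale was required, *Ccl8* and *Ccl12* were left.

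**Figure D3:**
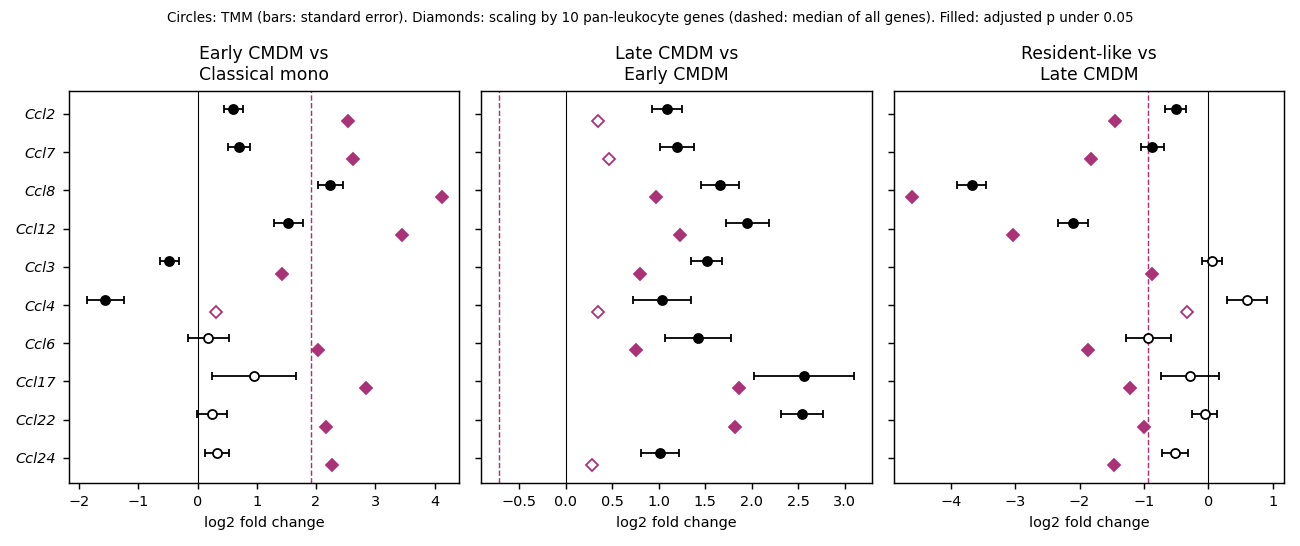
Log2 fold change (x axis) of each gene (y axis) in the 3 comparisons of neighbouring fractions, as circles with standard errors after TMM scaling and as diamonds after scaling by 10 pan-leukocyte genes, with filled symbols for adjusted p-values under 0.05. The dashed line is the median of all genes under the leukocyte scaling (1.92, -0.72 and -0.94), and relative to it *Ccl8* and *Ccl12* are furthest right in the first step and furthest left in the last, while all 10 diamonds lie right of it from early to late CMDMs.

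The fractions that are not neighbours were compared with the same libraries, so that these results are not independent of those above. For late CMDMs against classical monocytes the calls were 9 higher and 0 lower, where 18.1% of all tested genes were called higher and 17.5% lower, with a median of 1.79 for the members and -0.01 for all genes. *Ccl8* was 14.9-fold, *Ccl17* 11.4-fold and *Ccl12* 11.2-fold higher, with log2 fold changes of 3.89, 3.51 and 3.49 (adjusted p = 5.12e-09, 0.000486 and 1.43e-07, edgeR's quasi-likelihood test), and *Ccl4* gave -0.52 (SE 0.30, adjusted p = 0.217). Scaled by the leukocyte genes, *Ccl4* gave 0.67 and was called too (adjusted p = 0.0212), with the median of all genes at 1.19. For resident-like macrophages against classical monocytes they were 7 higher and 0 lower, where 10.8% of all tested genes were called higher and 12.9% lower, with medians of 1.06 and 0.00. *Ccl17* at 3.22 and *Ccl22* at 2.73 led there (adjusted p = 0.00141 and 2.69e-07, same edgeR test), and *Ccl8* gave 0.22 (SE 0.20, adjusted p = 0.51). Under the leukocyte scaling 9 were higher, with *Ccl8* at 0.48 (adjusted p = 0.041) and *Ccl6* at 0.93 (adjusted p = 0.021) added and the median of all genes at 0.26. For resident-like macrophages against early CMDMs they were 5 higher and 1, *Ccl8*, lower, where 21.4% of all tested genes were called higher and 25.1% lower, with medians of 0.54 and 0.03. The higher genes were *Ccl2*, *Ccl3*, *Ccl4*, *Ccl17* and *Ccl22*, and *Ccl8* gave -2.02 (SE 0.21, adjusted p = 1.05e-06, same edgeR test). Further values of this comparison crossed the threshold when a library was left out: *Ccl12* at -0.56 without resident-like replicate 2 (adjusted p = 0.0096), *Ccl6* at 0.95 without early CMDM replicate 3 (0.0377), and *Ccl24*, whose value was 0.49 (SE 0.20, adjusted p = 0.0581), without late CMDM replicate 2 (0.0499) or 3 (0.0302) or resident-like replicate 1 (0.00975). Under leukocyte scaling that comparison had 1 gene higher, *Ccl22*, and 6 lower, with the median of all genes at -1.66.

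Ordering the fractions by mean level after TMM scaling gave several patterns. For *Ccl8* the order was late CMDMs, early CMDMs, resident-like macrophages and classical monocytes, and only the last neighbours were not called apart (adjusted p = 0.51). For *Ccl12* the order was the same, but early CMDMs and resident-like macrophages were not called apart (adjusted p = 0.633), whereas resident-like macrophages and classical monocytes were (adjusted p = 0.000832, edgeR's quasi-likelihood test). *Ccl2* and *Ccl7* ran from late CMDMs through resident-like macrophages and early CMDMs to classical monocytes, with every neighbour called apart for *Ccl2* and all but resident-like macrophages and early CMDMs for *Ccl7* (adjusted p = 0.157). *Ccl17* and *Ccl22* had that order too, but with the call between resident-like macrophages and early CMDMs alone (adjusted p = 0.0041 and 2.2e-07, same edgeR test). *Ccl6* and *Ccl24* also had it, with no neighbours called apart. *Ccl3* ran from resident-like macrophages through late CMDMs and classical monocytes to early CMDMs, without a call between the highest pair. For *Ccl4*, with classical monocytes in second place, the call was between late and early CMDMs alone. Several of these orders depended on the scaling. Under the leukocyte scaling resident-like macrophages were below early CMDMs for *Ccl2* (-1.10, adjusted p = 2.07e-05), *Ccl7* (-1.35, adjusted p = 4.64e-06), *Ccl6* (-1.10, adjusted p = 0.00136) and *Ccl24* (-1.18, adjusted p = 8.3e-05), and *Ccl12* was called apart there (-1.81, adjusted p = 5.98e-07, edgeR's quasi-likelihood test). *Ccl2* was then not called between late and early CMDMs (0.35, adjusted p = 0.121), and *Ccl3* (1.43) and *Ccl4* (0.31) were above classical monocytes in early CMDMs.

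Ratios of counts between members within a library do not depend on how libraries are scaled, and are given as descriptions. The count of *Ccl8* was 4.36 to 7.08 times that of *Ccl2* in classical monocytes, 12 to 21.9 times in early CMDMs, 18.9 to 31.9 times in late CMDMs and 2.46 to 2.87 times in resident-like macrophages. The ratio of *Ccl12* to *Ccl2* was 0.0622 to 0.0860 in classical monocytes, 0.125 to 0.146 in early CMDMs, 0.230 to 0.260 in late CMDMs and 0.0534 to 0.0994 in resident-like macrophages. In both ratios early CMDMs lay above classical monocytes and late CMDMs highest on average, with overlap between the CMDM fractions for *Ccl8* only. By contrast *Ccl7* to *Ccl2* stayed between 1.04 and 1.56 in all 12 libraries. The ratio of *Ccl4* to *Ccl3* was 2.52 to 4.52 in classical monocytes, 1.40 to 1.99 in early CMDMs, 1.13 to 1.29 in late CMDMs and 1.64 to 1.93 in resident-like macrophages, so that it was highest in the monocyte libraries. *Ccl22* to *Ccl17* varied from 1.44 to 6.84 among the 3 resident-like macrophage libraries.

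On chromosome 11 the members stood beside CC chemokine genes with other patterns. *Ccl11*, which encodes eotaxin and lies between *Ccl7* and *Ccl12*, had 16.4 ± 7.14 CPM in the monocyte libraries, 15.3 ± 3.18 CPM in the early CMDM libraries, 2.29 ± 0.160 CPM in the late CMDM libraries and 1.57 ± 0.544 CPM in the resident-like libraries. It was lower in late than in early CMDMs by a log2 fold change of -2.74 (SE 0.33, adjusted p = 1.85e-05, edgeR's quasi-likelihood test), the step in which its flanking members rose. *Ccl5*, at the start of the second block, had 235 ± 63.7 CPM in the monocyte libraries and 21.5 ± 6.86 CPM in the early CMDM libraries (log2 fold change -3.45, SE 0.32, adjusted p = 2.82e-06, same edgeR test). Among the 12 other CC chemokine genes tested, early CMDMs had 5 higher and 3 lower than classical monocytes, with 4 and 3 in late against early CMDMs, and 1 and 4 in resident-like macrophages against late CMDMs. *Ccl20* was at 101.4 ± 27.2 CPM in the early CMDM libraries against 13.2 ± 7.77 CPM in the monocyte libraries and 17.2 ± 3.21 CPM in the late CMDM libraries, and fell in late CMDMs by 2.55 on the log2 scale (adjusted p = 0.000631, same edgeR test). *Ccl21a*, a gene of lymphatic endothelium, was at 158 ± 46.0 CPM in the late CMDM libraries and 11.9 ± 2.49 CPM in the resident-like libraries (log2 fold change -3.73, adjusted p = 1.34e-07). Its near-identical copy *Ccl21b* gave -3.67, and reads could be split between them.

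**Figure D4:**
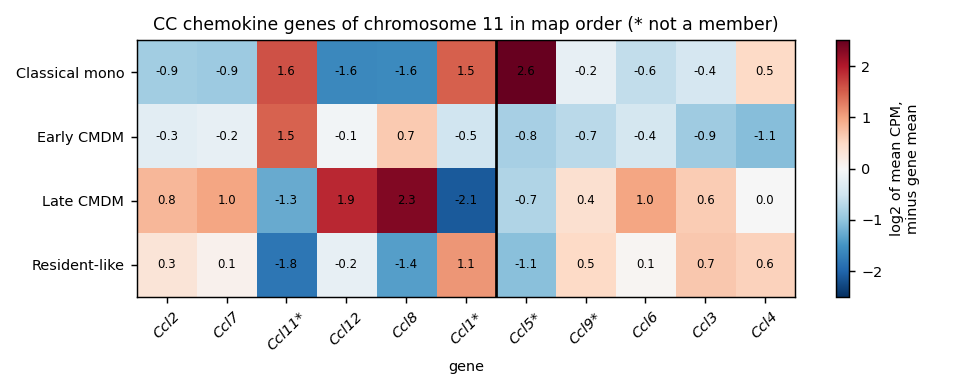
CC chemokine genes of chromosome 11 in map order (x axis, asterisk for a gene that is not a member, black line between the blocks) by fraction (y axis), with the log2 of the mean CPM minus the mean of the gene over the fractions as colour and number. *Ccl8* reaches 2.3 and *Ccl12* 1.9 in late CMDMs, where *Ccl11* between *Ccl7* and *Ccl12* is at -1.3.

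Receptors of these chemokines were read in the same libraries. *Ccr2* was at 391 ± 54.2 CPM in the monocyte libraries, 129 ± 32.7 CPM in the early CMDM libraries, 107 ± 7.93 CPM in the late CMDM libraries and 439 ± 15.8 CPM in the resident-like libraries, so that late CMDMs, highest in the genes of its ligands, *Ccl2*, *Ccl7* and *Ccl12*, were among the lowest in the gene of the receptor. *Ccr1* was at 196 ± 70.7 CPM, 98.4 ± 26.9 CPM, 138 ± 12.4 CPM and 119 ± 6.59 CPM in the same order. The receptors known from lymphocytes and granulocytes had few counts, *Ccr4* at 4.58 ± 1.00 CPM in the early CMDM libraries and at most 2.46 CPM on average elsewhere, *Ccr8* at 5.36 ± 2.02 CPM in the monocyte libraries and at most 0.757 CPM elsewhere, and *Ccr3* at 5.57 ± 1.05 CPM in the resident-like libraries and at most 1.57 CPM elsewhere. Among 7 receptor genes, including the scavenging receptors *Ackr1* and *Ackr2*, early CMDMs had 2 higher and 3 lower than classical monocytes, with 0 and 3 in late against early CMDMs, and 2 and 1 in resident-like macrophages against late CMDMs. *Ccr2* gave -1.60 in the first of these steps and 2.03 in the last (adjusted p = 3.41e-07 and 1.1e-07, edgeR's quasi-likelihood test).

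Genes of the pathways known to induce the members were counted from fixed lists. Among 12 IL-4 response genes, early CMDMs had 5 higher and 4 lower than classical monocytes, with 7 and 1 in late against early CMDMs, and 3 and 6 in resident-like macrophages against late CMDMs, with median log2 fold changes of 0.21, 1.01 and -0.46. The list holds *Pdcd1lg2*, which encodes the sorting marker PD-L2 and whose calls the gate may set. Without it, 4 were higher and 4 lower in the first of these steps, 6 and 1 in the second, and 3 and 5 in the last. In the second step *Mgl2* gave 1.45 and *Mrc1*, the mannose receptor, 1.41 (adjusted p = 2.16e-06 and 3.83e-05, edgeR's quasi-likelihood test), and in the last *Arg1*, which encodes arginase, gave -2.83 but *Mgl2* 2.21 (adjusted p = 0.00128 and 3.23e-08). Of 12 NF-kappaB target genes, 3 were called higher and 7 lower in the first step, 4 and 1 in the second, and 11 and 0 in the last, with medians of -0.62, 0.26 and 0.55. In that last step, in which *Ccl2* and *Ccl7* were lower and *Ccl3* and *Ccl4* did not pass the test, *Il1b* gave 2.09 and *Nfkbie*, an inhibitor of the pathway, 1.10 (adjusted p = 5.05e-08 and 0.00102, same edgeR test). In the first step *Il1b* gave -2.60, and in the second *Il6* gave -2.01 but *Tnf* 1.35 (adjusted p = 2.75e-09, 5.65e-05 and 1.07e-05). Of 16 CXC, CX3C and XC chemokine genes tested, 4 were higher and 6 lower in the first step, 4 and 3 in the second, and 6 and 3 in the last. The platelet factor gene *Pf4* was at 909 ± 127 CPM in the late CMDM libraries and 369 ± 87.3 CPM in the resident-like libraries (log2 fold change -1.30, adjusted p = 0.00303). The counts of these lists, and those of receptors and other chemokines, are given under TMM scaling only, and under the leukocyte scaling the median of all genes moved to 1.92, -0.72 and -0.94 in these steps.

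Markers of other cell types moved with the members in several steps. In resident-like macrophages *Ccl17* and *Ccl22* were higher than in classical monocytes, with a wide spread of *Ccl17*. There the 8 dendritic and Langerhans cell markers summed to 1506 to 1763 CPM, against 249 to 380 CPM in the libraries of the other fractions. Of these 8 markers 3 were higher than in classical monocytes and 2 lower, and 5 were higher than in late CMDMs and 0 lower. *Cd207*, the Langerhans cell marker langerin, was at 819 ± 125 CPM. By contrast, *Flt3* had 27.0 ± 4.73 CPM there against 68.9 ± 10.7 CPM in classical monocytes, and *Itgae* 1.35 ± 0.568 against 5.68 ± 1.94 CPM. In classical monocytes, where *Ccl4* was high relative to *Ccl3*, the 6 T cell markers summed to 105 to 147 CPM, against 12.5 to 25.8 CPM elsewhere, and all 6 were lower in early CMDMs. The 6 basophil and mast cell markers summed to 29.7 to 55.2 CPM in the resident-like libraries and to 5.88 to 28.8 CPM elsewhere, and the 5 eosinophil markers to 165 to 216 CPM against 15.7 to 33.6 CPM, with *Epx* at 0 in the 9 libraries of the other fractions. In late CMDMs, where the monocyte chemoattractants peaked, the 6 lymphatic endothelial markers summed to 219 to 260 CPM, against 44.8 to 120 CPM elsewhere, and all 6 were higher than in early CMDMs. These include *Lyve1*, which macrophages can express. The 6 fibroblast markers summed to 3254 to 5588 CPM in the monocyte libraries, 2988 to 4205 CPM in the early CMDM libraries, 478 to 499 CPM in the late CMDM libraries and 276 to 358 CPM in the resident-like libraries, a course shared by *Ccl11*. The 6 neutrophil markers summed to 75.0 to 137 CPM over all libraries, with *Ly6g* at 0 outside classical monocytes. Each list except neutrophil and eosinophil had all its genes detected in each fraction. The gate on CD45, CD11b, Ly6G and Siglec-F, by the methods also on the marker encoded by *Adgre1*, has a stated aim. It is meant to leave out keratinocytes, fibroblasts, endothelium, neutrophils, eosinophils and most T cells. How far the gate did so was not measured. The sorted libraries still held the fibroblast levels above and keratinocyte sums of 17100 to 27280 CPM in early CMDMs. The part of these cell types in the levels of the chemokines was not tested.

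The genes most like each member over the 12 libraries were read by Pearson's r of log2 CPM among 18876 genes with a mean of at least 1 CPM, as a description, because the libraries of a fraction share much of their pattern. *Ccl8* was followed most closely by *Rnase2a* (r = 0.997), *Ccdc152* (0.995) and *Cnrip1* (0.993). *Ccl2* and *Ccl7* were among the 3 genes most like each other (r = 0.975), and *Epor* (0.982 and 0.983) and *Tnfrsf17* (0.980 and 0.974) were close to both. For *Ccl12* they were *Kif1b* (0.976), *Itsn1* and *Scfd2*, for *Ccl22* *Klf2* (0.977), *Brip1os* and *Gm49960*, and for *Ccl17* *Gm16133* (0.960), *Ypel5* and *Atp6v1g1*. For *Ccl3* they were *Slc46a3* (0.978), *Bach1* and *Stxbp6*, for *Ccl4* *Gm31614* (0.980), *Samd9l* and *Celf2*, for *Ccl6* *Ap2s1* (0.953), *Dynlt1-ps1* and *Gm3435*, and for *Ccl24* *Ip6k3* (0.958), *Gm38050* and *Olfr633*. Among the members themselves, *Ccl17* and *Ccl22* had an r of 0.906, *Ccl8* and *Ccl12* of 0.893 and *Ccl8* and *Ccl22* of 0.357, all over 12 libraries, while *Ccl4* gave -0.42 with *Ccl8* and 0.01 with *Ccl7*.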

How the data were processed

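From each of 4 sorted Mo-Mac fractions, mRNA was captured by oligo(dT) and made into 3 libraries. The deposited values are raw counts per gene symbol; per the submitters' processing notes and the study's methods, the authors used cutadapt 4.1 for trimming and Bowtie2 2.4.5 for mapping against GRCm38 transcripts, without normalization. Reads were mapped with an option that bars the forward strand of the transcripts (--nofw), and whether the library preparation marked strand is not given in the sources used here. Fractions were taken from the cell subtype label. Whether libraries of a fraction came from separate mice is not stated, so p-values measure only the spread between these libraries. Libraries of a fraction differed by more than counting noise (chi-square divided by its degrees of freedom, 4.64 to 24.8), and none was treated as a duplicate.

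Counts were tested with edgeR 4.0.16 in R 4.3.3 (TMM, filterByExpr by fraction, robust quasi-likelihood fit of all 12 libraries, 1 coefficient per fraction, 6 comparisons), in place of TCC, which the study used and which also rests on edgeR. P-values were adjusted by Benjamini-Hochberg over 22118 genes and called under 0.05. The biological coefficient of variation was 13.2%. Standard errors were derived from the fold change and the F statistic, and log2 CPM used a prior count of 2. The test was checked on simulated data. Lengths and positions are from GENCODE M21 (GRCm38), with the longest protein-coding transcript of a gene taken as its length.

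The 10 members, the gene lists and the marker lists were chosen with earlier results of these data known. The ratios between members and the genes set beside them on chromosome 11 were chosen after their values were seen. From each list of receptors, chemokines, NF-kappaB targets and IL-4 response genes, up to 2 called genes with the largest change per neighbouring comparison and at least 1 CPM in a fraction could be named, as could the receptors (1 of the list is not reported here), and the 3 most similar genes per member. Alternatives were DESeq2 1.42.0, RLE size factors, scaling by 10 pan-leukocyte genes, TMM without genes over 1% of counts, no filter, fits of 6 libraries, a replicate block, a log2 fold change of at least 1 and leaving out each library.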

Additional observations from a re-analysis of the deposited data

How the results depend on the processing

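DESeq2, RLE size factors, TMM without genes over 1% of counts, no filter and fits of 6 libraries left the number of members called within 1.5 times in all 6 comparisons. Values for the 6 are in the order early CMDM over classical, late over early, resident-like over late, late over classical, resident-like over early and resident-like over classical. Scaling by 10 pan-leukocyte genes moved it to 6 in late against early CMDMs and to 9 in resident-like macrophages against late CMDMs. Calling only changes of at least 1 on the log2 scale moved it to 3 in early CMDMs against classical monocytes and to 2 in resident-like macrophages against late CMDMs, because fewer genes can pass, and called 4427, 2631, 2297, 3149, 4683 and 2272 of all genes in the 6 comparisons.

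Under the leukocyte scaling the signs turned for *Ccl3* (1.43) and *Ccl4* (0.31) in early CMDMs against classical monocytes, for *Ccl3* (-0.88) and *Ccl4* (-0.34) in resident-like macrophages against late CMDMs and for *Ccl4* (0.67) in late CMDMs against classical monocytes. In resident-like macrophages against early CMDMs they turned for *Ccl2* (-1.10), *Ccl7* (-1.35), *Ccl3* (-0.081), *Ccl6* (-1.10) and *Ccl24* (-1.18). The median of all genes then moved to 1.92, -0.72, -0.94, 1.19, -1.66 and 0.26, and 98.1%, 2.66%, 2.44%, 95.7%, 1.38% and 71.5% of the called genes were higher, against 54.0%, 45.1%, 45.1%, 50.8%, 46.0% and 45.7% under TMM. It called 20972, 13662, 17395, 19010 and 20433 of all genes in the first 5 comparisons, more than 1.5 times the number under TMM.

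Leaving out a library turned only values that had not been called. *Ccl4* in resident-like macrophages against classical monocytes ran from -0.13 to 0.42 over these fits, *Ccl6* in early CMDMs against classical monocytes from -0.27 (without early CMDM replicate 3) to 0.46, and *Ccl12* in resident-like macrophages against early CMDMs from -0.56 to 0.0896. In resident-like macrophages against late CMDMs, *Ccl3* ran from -0.032 to 0.18, *Ccl17* from -1.16 to 0.15 and *Ccl22* from -0.32 to 0.13, the highest of both without resident-like replicate 1. The cause of these changes was not tested. Fits of the 6 libraries of a pair also called *Ccl4* in resident-like macrophages against late CMDMs (0.60, adjusted p = 0.0321), and *Ccl6* against classical monocytes (0.67, adjusted p = 0.0048) and *Ccl24* against early CMDMs (0.52, adjusted p = 0.037) in resident-like macrophages, the last also by DESeq2 (adjusted p = 0.0392).

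Replicate numbers are shared between fractions, and the labels do not say whether same-numbered libraries are pairs. With the fraction means removed, same-numbered libraries correlated at -0.10 to 0.25. The mean for differently numbered libraries was from -0.0859 to 0.0105. For classical monocytes and early CMDMs the values were 0.0763, 0.193 and 0.248, against -0.0859. Pairing was thus not settled, and the main fit left the number out. With a replicate block the members called were 6, 10, 4, 9, 6 and 7 in the 6 comparisons, as without it. Of all genes, 10322, 7565, 6799, 8440, 10656 and 5728 were called with the block, against 9925, 7045, 6225, 7869, 10297 and 5251 without it. With 3 libraries per fraction and no unsorted skin or other lesion, differences below the spread of libraries were not detectable.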
